A study of Vachellia cornigera with 24 samples.

Results

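The genes described here are the 9 rows of the deposited expression table for jasmonate synthesis, perception and repression: LOX2 (AT3G45140), LOX3 (AT1G17420), OPR3 (AT2G06050), JAR1 (AT2G46370), COI1 (AT2G39940), MYC2 (AT1G32640), JAZ1 (AT1G19180), JAZ2 (AT1G74950) and JAZ8 (AT1G30135). They were chosen by locus, and 9 of 12650 rows carry those loci. Each row is named after its closest Arabidopsis thaliana locus, so a row is the acacia transcript or transcripts most like that Arabidopsis gene, and the names and roles below are those of Arabidopsis. The tissue was the extrafloral nectary, a sugar-secreting gland outside the flower, of field-grown bullhorn acacia (Acacia cornigera), a tree that feeds and houses the ant Pseudomyrmex ferrugineus. RNA was sequenced in 24 libraries, each from nectaries pooled over several plants. In a time course 3 libraries came from 9 am, 3 from noon, 1 from 2 pm, 3 from 3 pm and 2 from 3 am on day 2. For the ant treatments, 3 libraries were from plants whose ants had been removed for 2 days (ants removed below), 3 from a treatment titled Gracilis replacement (Gracilis), 2 from one titled gut contents applied (gut contents) and 1 from one titled ants replaced after 2 days (returned ants). Another 3 libraries were the 8 am controls, which the submitters count among the times of day. The labels give no genotype or plant age, tell the day of sampling apart for the 3 am libraries alone, do not name the source of the gut contents, and give a clock time (9 am) for the returned ants but for no other ant treatment. For the ant treatments, a difference from the 8 am controls therefore cannot be told apart from a difference in clock time or day of sampling.

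Jasmonates are lipid hormones made from linolenic acid of the chloroplast. Lipoxygenases such as LOX2 and LOX3 add oxygen to the fatty acid, allene oxide synthase and cyclase turn the product into a ring-bearing intermediate, and OPR3 reduces that intermediate in the peroxisome, where beta-oxidation shortens it to jasmonic acid. JAR1 joins jasmonic acid to isoleucine, and this conjugate is the form that the receptor F-box protein COI1 binds together with a JAZ protein. JAZ proteins hold MYC2 and its relatives inactive. Binding of the hormone sends most JAZ proteins, though not all alike, to degradation and frees MYC2, which in turn raises the transcripts of several JAZ and biosynthetic genes. In acacias and other plants jasmonate is known as a signal of wounding that raises the flow of extrafloral nectar.

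Values are normalised counts, which the authors scaled between libraries. They are not divided by transcript length, so levels are compared between libraries and not between genes. Library totals ran between 21084266 and 32520511, with the single 2 pm library highest. All 9 members had a mean of at least 10 and entered the tests. Of the 5 nectary markers 4 are in the table and none was at 0 in any library. Their summed level was 157556 to 303046 with ants removed, 168462 to 205957 in Gracilis, 185787 to 306612 with gut contents and 224894 to 281261 in 8 am controls, against 19269 to 21412 at noon. Each of the 6 libraries of 9 am and 3 pm correlated more closely with a library of another group (0.953 to 0.988, across genes on the log2 scale) than with its own replicates (at most 0.937). The same held, at higher values, for 3 am sample 1 (0.971 with 9 am, 0.968 with its replicate) and, between ant treatments, for ants removed sample 1, Gracilis samples 1 and 3 and both gut contents libraries (0.983 to 0.985 for 4 of them and 0.980 for gut contents sample 2, against 0.960 to 0.981 with their own replicates). Noon samples 1 and 3, and ants removed samples 2 and 3, are near-identical pairs, with correlations of 0.994 and 0.993. Nothing beyond the pooling of plants says how the libraries of a group differ in origin, so p-values measure the spread between these libraries. In whole glands, fewer cells of a type and less RNA per cell cannot be told apart.

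**Figure D1:**
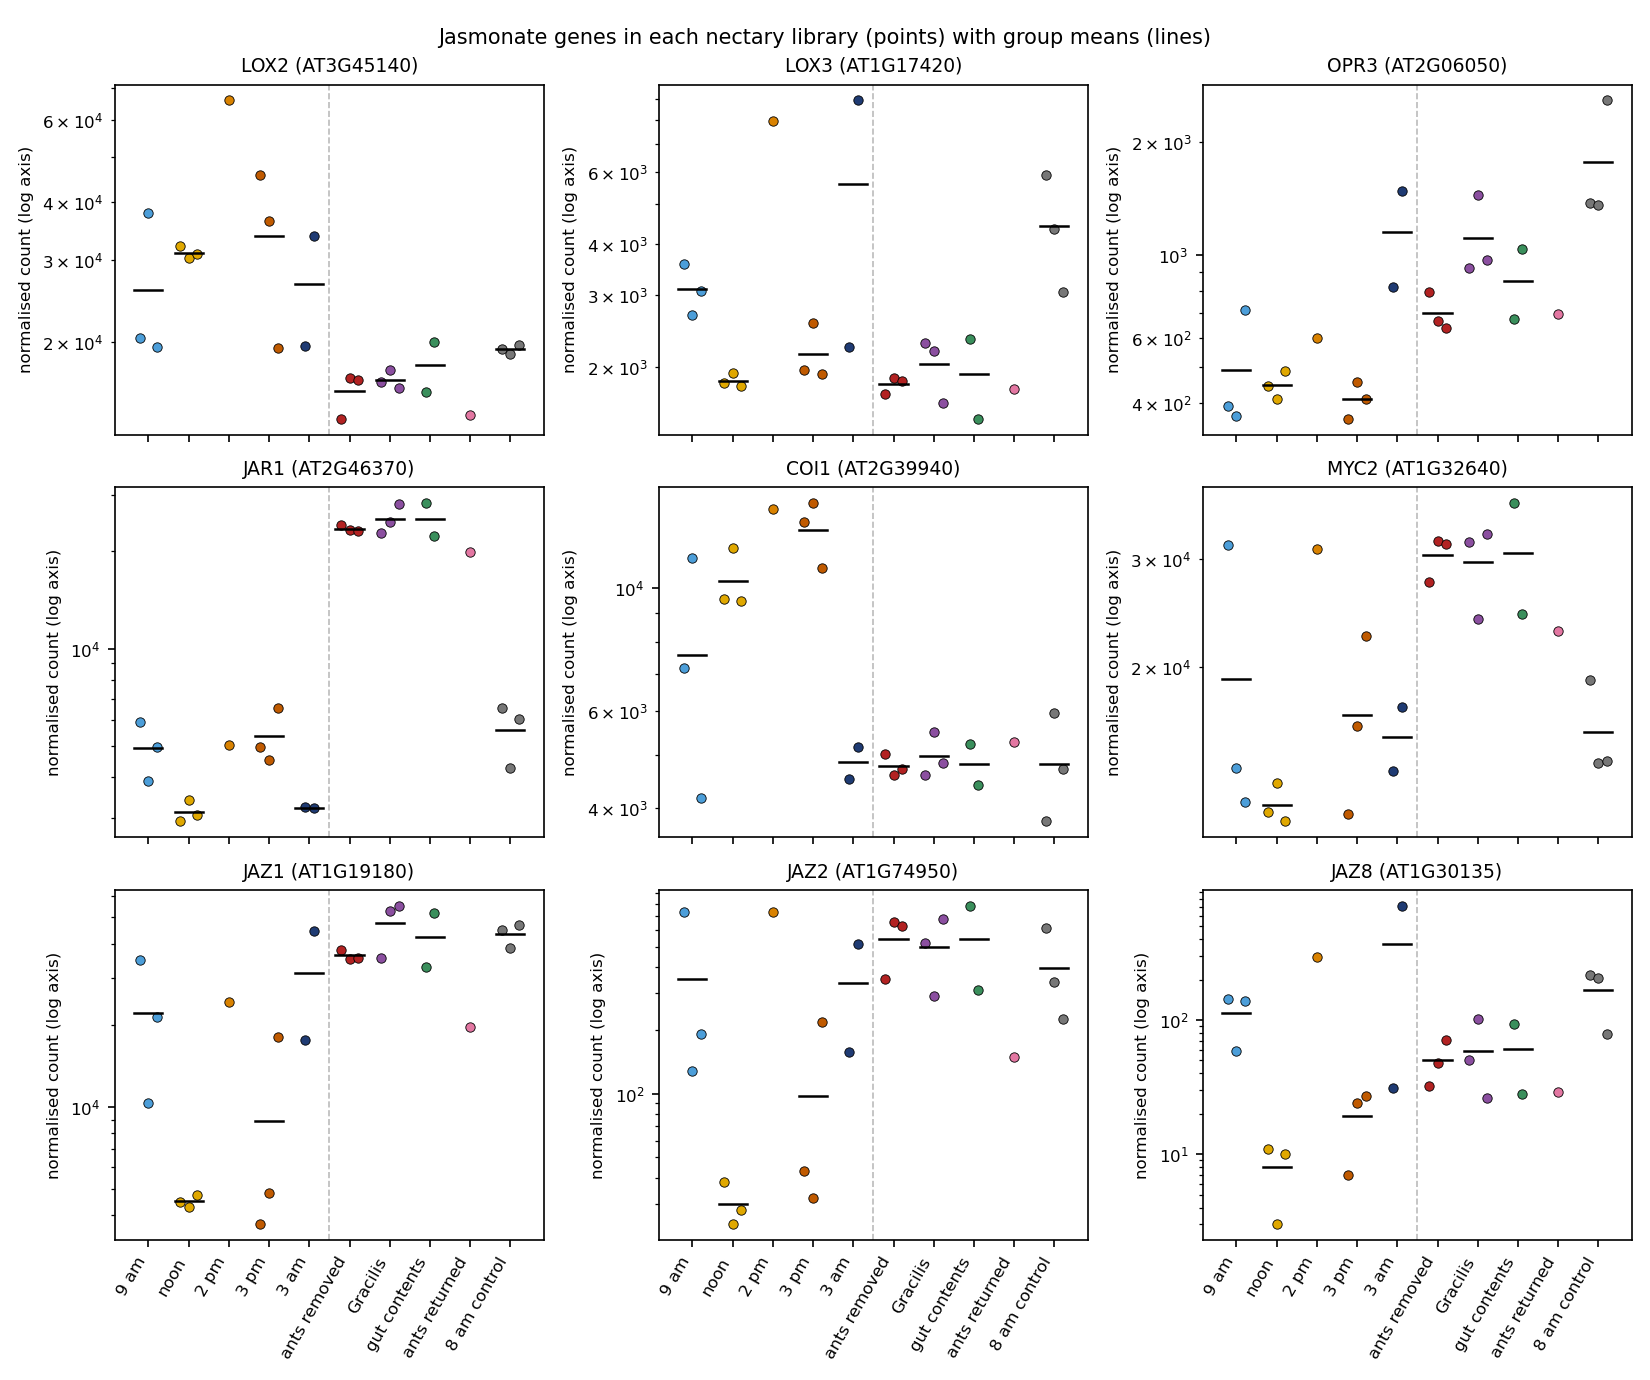
Normalised counts (log axis) of the 9 jasmonate genes in each of 24 libraries, by group, with the 5 times of day of the time course left of the dashed line and the 4 ant treatments and the 8 am controls right of it. Points are libraries and lines are means of groups with more than 1 library. All 9 ant-treatment libraries stand above the other 15 for JAR1, and the JAZ genes are lowest at noon and in 2 of the 3 libraries from 3 pm.

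The comparisons of each ant treatment with 8 am controls asked how nectaries changed when the resident ants were disturbed. JAR1, the enzyme that makes the active hormone conjugate, was about 4 times as high in every ant treatment. MYC2, the transcription factor that the pathway releases, rose by a factor of about 2 with ants removed and in Gracilis. Of the enzymes that act earlier in synthesis, LOX3 fell in all 3 treatments and OPR3 fell with ants removed and with gut contents. COI1 and the repressors JAZ1, JAZ2 and JAZ8 did not pass the test in any of the 3 comparisons. An F test in limma over the 4 replicated groups (8 am controls, ants removed, Gracilis and gut contents) called JAR1, OPR3 and LOX3 at an adjusted p under 0.05, which is 3 of 9 members, where 22.3% of all 12264 genes tested were called.

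JAR1 stood at 24229, 23272 and 23106 normalised counts with ants removed. It stood at 22849, 24595 and 28011 in Gracilis libraries and at 28194 and 22270 with gut contents, against 6546, 4260 and 6053 in 8 am controls. The lowest of these treated libraries was more than 3 times the highest control. The log2 fold change on the scale log2(value + 1) was 2.09 ± 0.18 (SE) with ants removed (limma, adjusted p = 1.86e-05), 2.18 ± 0.18 in Gracilis (adjusted p = 3.81e-06) and 2.18 ± 0.21 with gut contents (adjusted p = 3.30e-05), or 4.26-fold, 4.53-fold and 4.53-fold. By p-value JAR1 ranked 1 of 12264 genes with ants removed, 2 in Gracilis and 1 with gut contents. The call held in each alternative analysis and with each library of the compared groups left out, with log2 fold changes between 1.90 and 2.35 in these fits. The single library of returned ants had 19857. Across the series the 9 ant-treatment libraries had 19857 to 28194 and the other 15 libraries 2918 to 6546, so the lowest of the first was 3.03 times the highest of the second.

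Other measurements moved with JAR1 in these libraries. The cell wall invertase CWINV4, which splits sucrose in nectar secretion, fell to 11309 ± 2365 with ants removed (SD, n = 3), 8735 ± 2476 in Gracilis (n = 3) and 13352 ± 9021 with gut contents (n = 2), against 85673 ± 15035 in 8 am controls (n = 3). SWEET9, the nectary sucrose exporter, did not move in this way. It had 148801 to 290122 with ants removed, 157651 to 195941 in Gracilis and 178615 and 286605 with gut contents. These values overlapped with the 8 am controls at 125151 to 206764. The sum of the 6 xylem markers in the table was 2642 to 3219 with ants removed, 2940 to 3501 in Gracilis and 2685 to 2987 with gut contents, against 8124 to 18774 in 8 am controls. The sum of the 6 mesophyll markers was 45652 to 62181 with ants removed, 52771 to 58867 in Gracilis and 42996 to 57176 with gut contents, against 108883 to 166858 in 8 am controls. For the 3 phloem markers in the table the sums were 12674 to 13200 with ants removed, 12969 to 13869 in Gracilis and 13510 to 14162 with gut contents, against 29369 to 39289. For the 4 guard cell markers they were 1007 to 1681 with ants removed, 1335 to 1665 in Gracilis and 1229 to 1254 with gut contents, against 1463 to 2013. The 2 heat shock genes summed to 1360 to 1882 with ants removed, 1210 to 1859 in Gracilis and 1776 to 1904 with gut contents, against 8229 to 33283. The xylem, mesophyll, phloem and heat shock sums did not overlap with those of the controls, and no marker was at 0 in a library. The guard cell sums overlapped with ants removed and in Gracilis, but not with gut contents. The clock gene TOC1 had 1472 to 2075 with ants removed, 1881 to 2342 in Gracilis and 1266 and 1938 with gut contents. Its 8 am controls had 904 to 986, with no overlap. LHY, another clock gene, had 107866 to 186662, 123275 to 163382 and 149139 to 173495 in that order, against 97394 to 135217. It overlapped with the controls with ants removed and in Gracilis. The part of these genes and markers in the change of JAR1, or of the other members below, was not tested.

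MYC2 stood at 27552, 32053 and 31753 with ants removed, at 31995, 23908 and 32986 in Gracilis and at 36965 and 24396 with gut contents, against 19017, 13969 and 14073 in 8 am controls. No treated library overlapped with the controls. The log2 fold change was 0.97 ± 0.30 with ants removed (limma, adjusted p = 0.0256) and 0.92 ± 0.30 in Gracilis (adjusted p = 0.0298). With gut contents it was 0.95 ± 0.34, which did not pass (adjusted p = 0.0535). These calls rest on single libraries: with ants removed MYC2 lost its call without 8 am control sample 2 or 3, without ants removed sample 2 or 3, and with the near-identical pair averaged (adjusted p up to 0.0966). In Gracilis it lost it without 8 am control sample 2 or 3 and without Gracilis sample 1 or 3 (adjusted p up to 0.0994). Under quantile normalisation it lost both calls. The returned ants library had 22857. Levels as high were also seen outside the ant treatments, at 31558 in 9 am sample 1 and 31086 in the 2 pm library.

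LOX3 moved the other way. It stood at 1719, 1882 and 1843 with ants removed, at 2288, 2180 and 1634 in Gracilis and at 2341 and 1494 with gut contents, against 5888, 4335 and 3044 in 8 am controls. The groups did not overlap in any of the 3 comparisons. The log2 fold change was -1.23 ± 0.35 with ants removed (limma, adjusted p = 0.0143), -1.08 ± 0.35 in Gracilis (adjusted p = 0.0255) and -1.19 ± 0.39 with gut contents (adjusted p = 0.0366). Without 8 am control sample 1, the highest of the controls, LOX3 lost its call in all 3 comparisons. It also lost it without control sample 2 in Gracilis and with gut contents, without Gracilis sample 2 or 3, without either gut contents library, and, with ants removed and gut contents, with near-identical pairs averaged. OPR3 stood at 796, 664 and 636 with ants removed and at 673 and 1033 with gut contents, against 1375, 1356 and 2590 in 8 am controls. It fell by 1.28 on the log2 scale with ants removed (SE 0.30, limma, adjusted p = 0.00424), a call kept in each of the 14 alternative and left-out fits. With gut contents it fell by 1.02 (SE 0.33, adjusted p = 0.0353), a call lost under quantile normalisation, in the fits of these groups alone, with pairs averaged, without 8 am control sample 3 and without gut contents sample 1. In Gracilis OPR3 had 919, 1441 and 970, which overlapped with the controls (log2 fold change -0.64 ± 0.30, adjusted p = 0.111).

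LOX2, the main chloroplast lipoxygenase of wounded Arabidopsis leaves, averaged 15671 ± 1706 with ants removed (SD, n = 3), 16600 ± 738 in Gracilis (n = 3) and 17828 ± 3112 with gut contents (n = 2), against 19293 ± 448 in 8 am controls (n = 3). It passed in none of the comparisons (limma, adjusted p = 0.449, 0.592 and 0.811 in that order of treatments). COI1 differed least of the 9 genes, with 4779 ± 216 with ants removed, 4970 ± 463 in Gracilis and 4815 ± 581 with gut contents, against 4810 ± 1077 in 8 am controls. Its log2 fold change with ants removed was 0.01, with a 95% interval of -0.52 to 0.55 (limma, adjusted p = 0.974). JAZ1 averaged 36248 ± 1550 with ants removed, 47775 ± 10673 in Gracilis and 42327 ± 13437 with gut contents, against 43443 ± 4409 in 8 am controls. Intervals for the repressors were wide, from -1.28 to 0.77 for JAZ1 and from -0.95 to 2.01 for JAZ2 with ants removed. JAZ8 had 32, 48 and 71 with ants removed, each below the 8 am controls at 215, 206 and 79, but the change did not pass (log2 fold change -1.65 ± 0.89, limma, adjusted p = 0.179). Groups did not overlap for 7 of 9 members with ants removed, 4 in Gracilis and 4 with gut contents, where 53.2%, 54.3% and 57.3% of all genes did not.

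**Figure D2:**
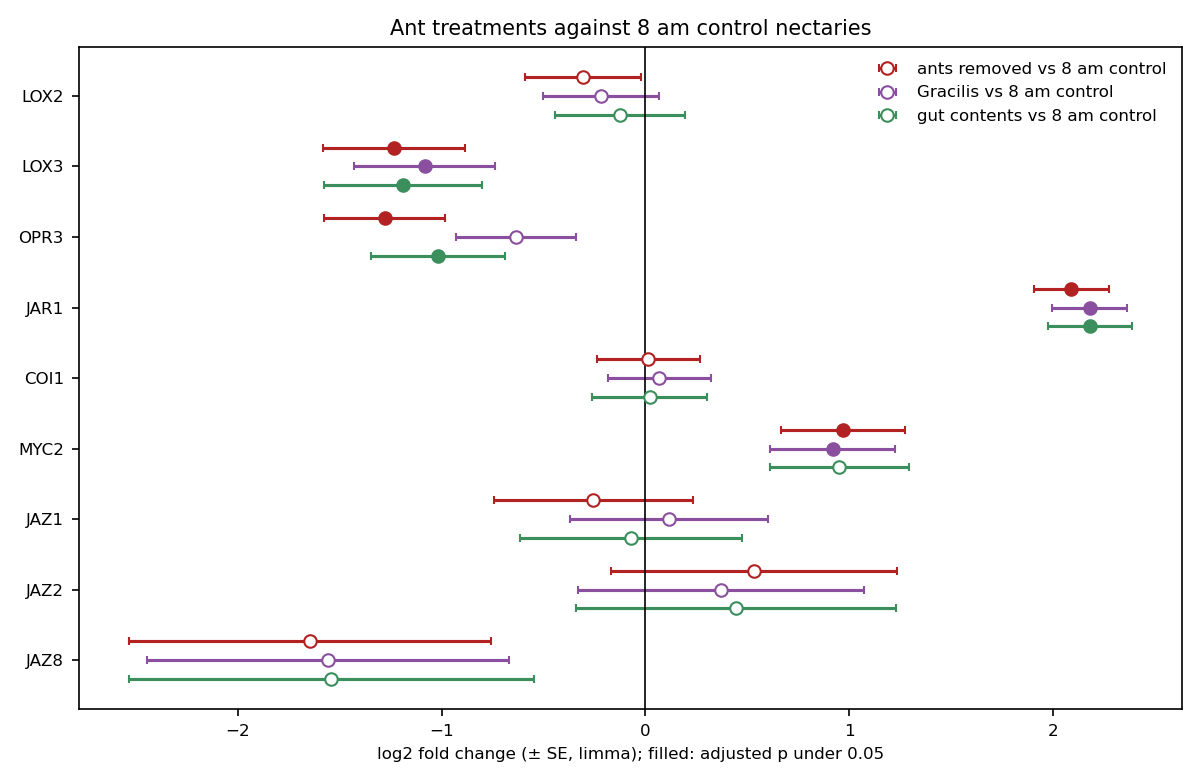
Log2 fold change (x axis, ± SE from limma) of the 9 genes (y axis) in each of 3 ant treatments against 8 am controls, on the scale log2(value + 1), with filled points where the adjusted p is under 0.05. JAR1 is near 2 in each treatment, LOX3 is near -1 and COI1 is near 0. The 3 comparisons share their control libraries.

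Called members numbered 4 of 9 with ants removed (2 higher and 2 lower), 3 of 9 in Gracilis (2 higher, 1 lower) and 3 of 9 with gut contents (1 higher, 2 lower), where 27.5% of all genes (11.6% higher, 15.9% lower), 30.4% (13.7% higher, 16.7% lower) and 22.0% (9.12% higher, 12.9% lower) were called. With 9 genes these shares are near the background, so the counts are no result about the members. With the near-identical pairs averaged, the counts were 2, 3 and 1.

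Setting the treatments against each other asked whether another ant or gut contents gave nectaries unlike those without ants. For Gracilis against ants removed limma called 0 members and 0 genes (0%), with 76 genes at an unadjusted p under 0.05. JAR1 had a log2 fold change of 0.09, with a 95% interval of -0.30 to 0.48, and MYC2 of -0.05, with an interval of -0.69 to 0.59. OPR3 was the 1 member whose groups did not overlap (919 to 1441 in Gracilis, against 636 to 796 with ants removed; log2 fold change 0.64 ± 0.30, adjusted p = 1), where 5.85% of all genes did not overlap. Libraries of equal sample number deviated together here, and with the sample number as a block the count of called members was also 0. For gut contents against ants removed limma called 0 members and 8 genes (0.0652%), with 111 genes at an unadjusted p under 0.05. No member had groups apart, where 10.4% of all genes did, and JAR1 had a log2 fold change of 0.09 with an interval of -0.34 to 0.53.

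Other genes of the pathway were taken from a list of 77 loci, of which 46 are in the table, 37 of them besides the 9 members. With ants removed 4 of these 37 rose and 1 fell, in Gracilis 5 rose and 0 fell, and with gut contents 2 rose and 0 fell. Called genes were thus 5, 5 and 2 of 37, where 27.5%, 30.4% and 22.0% of all genes were called, so these counts show no change particular to the pathway, and the genes named next are single cases. The median log2 fold changes of the 37 were 0.19, 0.32 and 0.24 in that order, and those of all genes -0.05, -0.03 and -0.01. AIM1, an enzyme of peroxisomal beta-oxidation, rose to 4524 ± 87 with ants removed and 4947 ± 360 in Gracilis and 4783 ± 203 with gut contents, against 3107 ± 294 in 8 am controls (limma, adjusted p = 0.0285, 0.00829 and 0.0306). MED25, the Mediator subunit that MYC2 recruits, also rose in all 3 treatments, by 0.56, 0.67 and 0.59 on the log2 scale. JAZ3, another repressor, named here after its values were seen, rose with ants removed (0.56, adjusted p = 0.0378) and in Gracilis (0.55, adjusted p = 0.0383). ERF1, an ethylene response factor of the branch that MYC2 opposes, rose with ants removed (2.29 ± 0.70, adjusted p = 0.0222) and in Gracilis (2.42 ± 0.70, adjusted p = 0.0149). LOX6, another 13-lipoxygenase, rose in Gracilis (0.79, adjusted p = 0.0181), and FAD7, the desaturase that makes linolenic acid in plastids, fell with ants removed (-2.09, adjusted p = 0.0144). With the near-identical pairs averaged the 3 counts were 1, 4 and 0.

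JAR1 belongs to the GH3 family, whose other members join amino acids to auxin and other acids. The table holds 7 other GH3 rows, which were looked at after their values were seen. AT1G28130 rose with ants removed, in Gracilis and with gut contents (log2 fold change 1.22, 1.39 and 1.34; limma, adjusted p = 0.000749, 0.000252 and 0.00119). AT1G59500 fell in the same 3 comparisons (-1.69, -1.92 and -1.57) and so did AT5G54510 (-1.42, -1.35 and -1.50). AT2G23170 fell in Gracilis (-3.32, adjusted p = 0.0306) and with gut contents (-4.07, adjusted p = 0.0259). It had 62, 5 and 50 in Gracilis and 83 and 2 with gut contents, against 299, 444 and 142 in 8 am controls. In each treatment 1 library near 0 thus enlarged the change. AT4G27260, AT4G03400 and AT2G47750 passed in none of the 3 comparisons. Rows of this family thus moved in both directions. OPR3 has 1 relative in the table, the reductase row AT1G76680, also looked at afterwards. It fell to 2316 ± 1557 with ants removed, 2799 ± 1423 in Gracilis and 1760 ± 264 with gut contents, against 13224 ± 1501 in 8 am controls (adjusted p = 0.000346, 0.000768 and 0.000687).

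The time course asked which genes differ between times of day. The F test in limma over 9 am, noon, 3 pm, 3 am and 8 am controls called 7 of 9 members, all but LOX2 and MYC2, where 39.7% of all genes were called. At noon the 3 JAZ repressors were at or near their lowest, together with OPR3, LOX3 and JAR1, while COI1 was high. At 3 am and in 8 am controls this was turned around for the repressors, OPR3, LOX3 and COI1. The 3 am libraries were taken on day 2, so in comparisons with them clock time and day of sampling cannot be told apart.

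Noon against 8 am controls gave the most called members: 6 were lower, 1 was higher and 2 did not pass. All 9 members had groups that did not overlap, where 65.7% of all genes did so, and 37.4% of all genes were called (19.7% higher, 17.7% lower). JAZ1 had 4479, 4297 and 4757 at noon, against 44973, 38473 and 46884 in 8 am controls (log2 fold change -3.26 ± 0.49, limma, adjusted p = 9.91e-05). JAZ2 had 38, 24 and 28 at noon, against 617, 339 and 228 in 8 am controls (-3.58 ± 0.70, adjusted p = 0.000883). JAZ8 had 11, 3 and 10 at noon, against 215, 206 and 79 in 8 am controls (-4.24 ± 0.89, adjusted p = 0.00141), and at such low values the added 1 makes the change smaller than it was. For each repressor the highest noon library was below the lowest control. The 3 calls held in each alternative and with each library left out.

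Of the synthesis genes OPR3 had 446, 411 and 489 at noon, against 1375, 1356 and 2590 in 8 am controls, and fell by 1.91 on the log2 scale (SE 0.30, limma, adjusted p = 0.000131). LOX3 had 1825, 1931 and 1792 at noon, against 5888, 4335 and 3044, and fell by 1.21 (SE 0.35, adjusted p = 0.0117), a call lost without 8 am control sample 1 (adjusted p = 0.0627). JAR1 had 2918, 3403 and 3048 at noon, against 6546, 4260 and 6053, and fell by 0.83 (SE 0.18, adjusted p = 0.00227). COI1, the receptor, was the member that rose at noon: it had 9538, 11794 and 9483 at noon, against 3788, 5935 and 4708 in 8 am controls (1.11 ± 0.25, adjusted p = 0.00256). LOX2 had 32116, 30314 and 30906 at noon, all above the 8 am controls at 19302, 18840 and 19736, but did not pass (0.69 ± 0.28, adjusted p = 0.0650). It was called under quantile normalisation, in the fit of these groups alone and with array quality weights. MYC2 averaged 11926 ± 918 at noon and 15686 ± 2885 in 8 am controls (adjusted p = 0.345).

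LHY, a clock gene that peaks near dawn in Arabidopsis, moved in the same direction as the repressors, with 987 to 1112 at noon, against 97394 to 135217 in 8 am controls. TOC1 moved the opposite way, with 4586 to 5051 at noon, against 904 to 986 in 8 am controls. Neither clock gene is a member, and their part in these differences was not tested. Marker sums for xylem overlapped (15242 to 16726 at noon, against 8124 to 18774 in 8 am controls). Those for guard cells (2153 to 2333 at noon, against 1463 to 2013), phloem (27965 to 28719, against 29369 to 39289), mesophyll (81118 to 84458, against 108883 to 166858) and heat shock (570 to 630, against 8229 to 33283) did not, nor did the nectary sums given above, and their part was not tested either.

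Set against noon, 3 am had 5 members higher and 1 lower, where 20.3% of all genes were called (9.89% higher, 10.4% lower). Groups did not overlap for 7 members, where 69.0% of all genes did not. JAZ1 had 17689 and 44580 at 3 am, against 4479, 4297 and 4757 at noon (log2 fold change 2.64 ± 0.55, limma, adjusted p = 0.00377). JAZ2 had 158 and 514 at 3 am, against 24 to 38 at noon (3.23 ± 0.79, adjusted p = 0.00945), and JAZ8 had 31 and 706, against 3 to 11 (4.22 ± 0.99, adjusted p = 0.00812). OPR3 rose by 1.30 (SE 0.33, adjusted p = 0.0116) and LOX3 by 1.27 (SE 0.39, adjusted p = 0.0282). LOX3 lost its call without any 1 of the noon libraries, in both fits of these groups alone and with pairs averaged, and without 3 am sample 2 its log2 fold change was 0.27 (adjusted p = 0.607). COI1 fell by 1.08 (SE 0.28, adjusted p = 0.0134), a call lost without noon sample 2 or either 3 am library. JAR1 and LOX2 did not rise with OPR3 and LOX3. JAR1 had 3230 and 3215 at 3 am, against 2918, 3403 and 3048 at noon (log2 fold change 0.05, 95% interval -0.39 to 0.48). LOX2 had 19617 and 33754 at 3 am, against 32116, 30314 and 30906 at noon (-0.27 ± 0.32, limma, adjusted p = 0.577). The 2 libraries of 3 am differed: sample 2 was above sample 1 in 8 of 9 members, by 22.8-fold for JAZ8, 4.01-fold for LOX3, 3.25-fold for JAZ2 and 2.52-fold for JAZ1. Without 3 am sample 2 none of the 6 members was called, and without sample 1 5 were. Marker sums for heat shock (31981 to 73186 at 3 am, against 570 to 630 at noon), nectary (89519 to 171213, against 19269 to 21412) and mesophyll (109878 to 134665, against 81118 to 84458) were higher in both 3 am libraries, and those for guard cells lower (1886 to 2132, against 2153 to 2333). Sums for xylem (9433 to 19268 at 3 am, against 15242 to 16726) and phloem (16750 to 36373, against 27965 to 28719) overlapped. The part of these markers in the result was not tested.

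**Figure D3:**
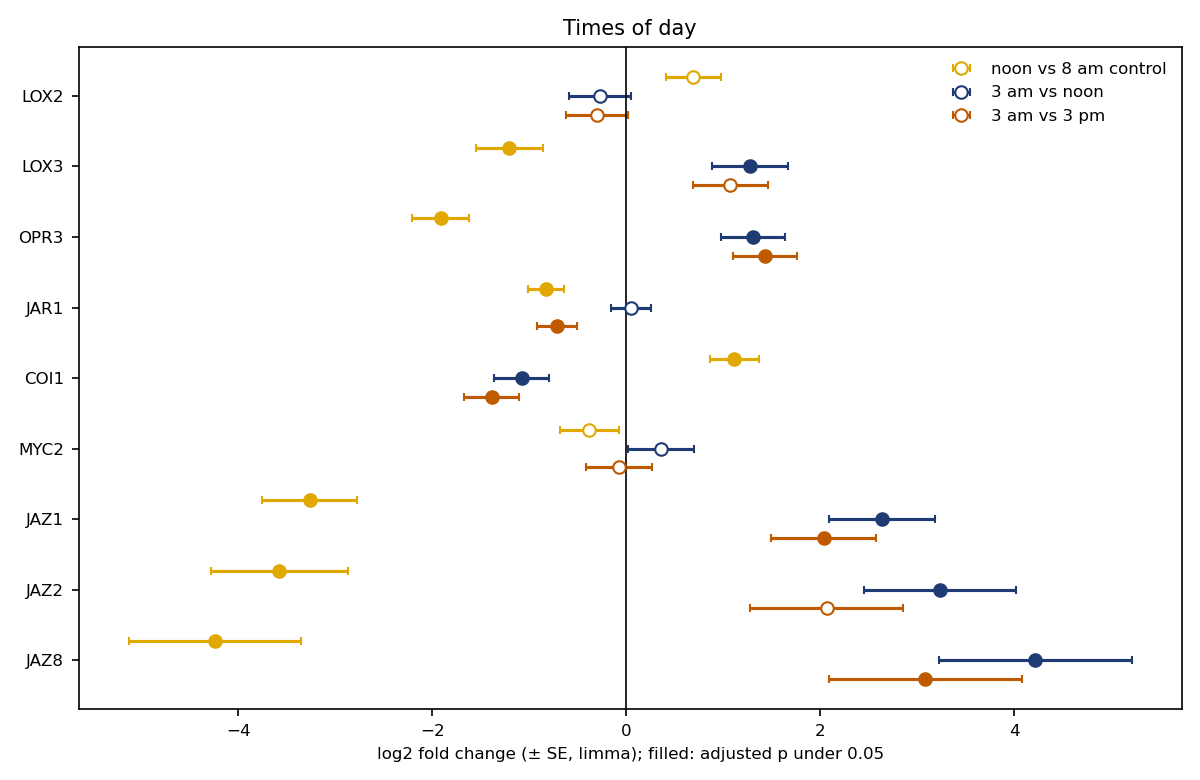
Log2 fold change (x axis, ± SE from limma) of the 9 genes (y axis) for noon against 8 am controls, 3 am against noon and 3 am against 3 pm, on the scale log2(value + 1), with filled points where the adjusted p is under 0.05. The JAZ genes lie left of 0 for noon against 8 am controls and right of 0 for 3 am against noon, and COI1 lies on the opposite sides. These comparisons share the noon or the 3 am libraries.

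Set against 3 pm, 3 am had OPR3, JAZ1 and JAZ8 higher and COI1 and JAR1 lower, where 19.6% of all genes were called (10.3% higher, 9.26% lower). Groups did not overlap for OPR3, JAZ8, COI1 and JAR1, where 41.1% of all genes did not. JAZ1 did overlap, with 17689 and 44580 at 3 am, against 3701, 4818 and 18110 at 3 pm. Without 3 pm sample 1 JAZ8 lost its call, without 3 pm sample 2 JAZ1 did, and without 3 pm sample 3 JAR1 did. COI1 had 4522 and 5162 at 3 am, against 13124, 14215 and 10848 at 3 pm (log2 fold change -1.39 ± 0.28, limma, adjusted p = 0.00516). JAR1 had 3230 and 3215 at 3 am, against 4972, 4538 and 6538 at 3 pm (-0.71 ± 0.21, adjusted p = 0.0238). In a fit of these 5 libraries alone 0 members were called, and without 3 am sample 2 COI1 was the 1 call left. Without 3 am sample 1 COI1 and JAR1 lost theirs. JAZ8 was called in 3 of 8 alternatives, being lost under quantile normalisation, in both fits of these groups alone, with array quality weights and with pairs averaged, and JAR1 was lost under median-of-ratios scaling, in both fits of these groups alone and with array quality weights. Marker sums for heat shock (31981 to 73186 at 3 am, against 563 to 4125 at 3 pm), nectary (89519 to 171213, against 10842 to 26949) and mesophyll (109878 to 134665, against 46839 to 80160) did not overlap, whereas those for guard cells, phloem and xylem did, and their part was not tested. Set against 8 am controls, 3 am had 0 members called (0.832% of all genes; 0.269% higher, 0.563% lower). JAR1 was the 1 member with groups apart, where 34.8% of all genes were, at 3230 and 3215, against 6546, 4260 and 6053 in 8 am controls (-0.78 ± 0.21, adjusted p = 0.0902). Set against noon, 3 pm had 0 members and 0 genes called by limma (0%), with 1798 genes at an unadjusted p under 0.05. JAR1 was there the 1 member whose groups did not overlap, with 4972, 4538 and 6538 at 3 pm, against 2918, 3403 and 3048 at noon (0.76 ± 0.18, adjusted p = 0.145), where 20.3% of all genes did not overlap, and it was called without 3 pm sample 2.

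The 3 pm libraries spread widely for some genes, though not in the same order for each. There sample 1 was the highest for LOX2, and sample 2 for LOX3, OPR3 and COI1. JAZ1 had 3701, 4818 and 18110, JAZ2 had 43, 32 and 219, MYC2 had 11520, 16035 and 22492 and LHY had 1739 to 12610, with sample 3 the highest of the 3 for JAR1, MYC2 and the 3 repressors. The 9 am libraries also spread widely. Sample 1 was the highest there for 6 members, with JAZ1 at 34940, 10323 and 21452 in samples 1 to 3, JAZ2 at 735, 128 and 192 and MYC2 at 31558, 13722 and 12075. COI1 had 7181, 11333 and 4180, with sample 2 the highest. Outside the members, 9 am samples 1 to 3 had LHY at 20730, 2525 and 83100 and TOC1 at 3773, 2205 and 569. SWEET9 had 12189, 17905 and 134932 there, and 9 am sample 3 correlated best with a 3 am library (0.971). The part of this spread in the comparison with noon was not tested. Against these 9 am libraries noon had JAZ1, JAZ2, JAZ8 and JAR1 lower (log2 fold change -2.13 ± 0.49, -3.11 ± 0.70, -3.72 ± 0.89 and -0.64 ± 0.18; limma, adjusted p = 0.0155, 0.0146, 0.0181 and 0.0361), where 12.4% of all genes were called (8.33% higher, 4.03% lower). Groups did not overlap for 5 members, these 4 and LOX3, where 39.1% of all genes did not. With the near-identical noon pair averaged, and without 9 am sample 3, noon sample 2 or noon sample 3, none of the 4 was called. Without noon sample 1 JAZ2 was the 1 call left. Marker sums for xylem (15242 to 16726 at noon, against 5659 to 8864 at 9 am), guard cells (2153 to 2333, against 1230 to 1349), heat shock (570 to 630, against 2088 to 46380) and nectary (19269 to 21412, against 21974 to 160426) did not overlap. Those for mesophyll and phloem did, and the part of these markers was not tested.

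In the order of group means, JAR1 had its lowest at noon (3123 ± 251) and 3 am (3222 ± 10.6, n = 2), then 9 am (4921 ± 1018), 3 pm (5349 ± 1052) and 8 am controls (5620 ± 1203), which overlapped with each other, and then a gap to the ant treatments, which overlapped among themselves. COI1 had 5 groups within 4779 and 4970, with 9 am (7565 ± 3592), noon (10272 ± 1319) and 3 pm (12729 ± 1718) above them, and no neighbours in that order were apart. MYC2 had its lowest mean at noon, with libraries at 11208 to 12960. These were apart from 3 am, the next group by mean, but overlapped with 3 pm (11520 in sample 1) and 9 am (12075 in sample 3). For LOX3 the neighbours 3 pm (2145 ± 354) and 9 am (3099 ± 443) were apart. Yet 3 am, the highest by mean, had a library at 2234, below the highest 3 pm library at 2552. For JAZ8 the neighbours 3 pm (19.3 ± 10.8) and ants removed (50.3 ± 19.6) were apart. A Gracilis library at 26 was still below the highest 3 pm library at 27. For JAZ1, JAZ2, OPR3 and LOX2 no neighbours in the order of means were apart.

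Among the 37 other pathway genes 9 fell and 3 rose at noon against 8 am controls, and 8 rose and 3 fell at 3 am against noon. These are 12 and 11 of 37, where 37.4% and 20.3% of all genes were called. The medians of the 37 were -0.23 and 0.25 on the log2 scale, and those of all genes 0.09 and -0.09. CYP94B1, which oxidises and so inactivates the jasmonate conjugate, had 774 to 874 at noon, against 29110 to 55553 in 8 am controls (log2 fold change -5.67, limma, adjusted p = 1.44e-05), and 9686 and 17117 at 3 am. JMT, which makes volatile methyl jasmonate, fell at noon (913 ± 74.5, against 5818 ± 1108 in 8 am controls; adjusted p = 3.63e-05), as did MYC3, a relative of MYC2 (1798 ± 147, against 5648 ± 947; adjusted p = 3.86e-05), and JAZ11 (3430 ± 149, against 11229 ± 1972; adjusted p = 5.15e-05). At 3 am against noon ANAC019, a NAC factor downstream of MYC2 (1.90, adjusted p = 0.000561), JMT (2.27, adjusted p = 0.0013), CYP94B1 (3.98, adjusted p = 0.00229) and MYC3 (1.23, adjusted p = 0.00304) rose. With the near-identical pairs averaged the 11 calls at 3 am were 7. The repressor class had 4 of 10 measured members lower and 0 higher at noon against 8 am controls, and 4 of 10 higher and 0 lower at 3 am against noon. In both comparisons 3 of the 4 were JAZ1, JAZ2 and JAZ8 and the other was JAZ11, so 1 of the 7 other repressors was called. The inactivation class had 3 of 7 lower at noon and 2 of 7 higher at 3 am. Of all genes 17.7% were lower at noon and 9.89% higher at 3 am, and classes this small were not tested against them.

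**Figure D4:**
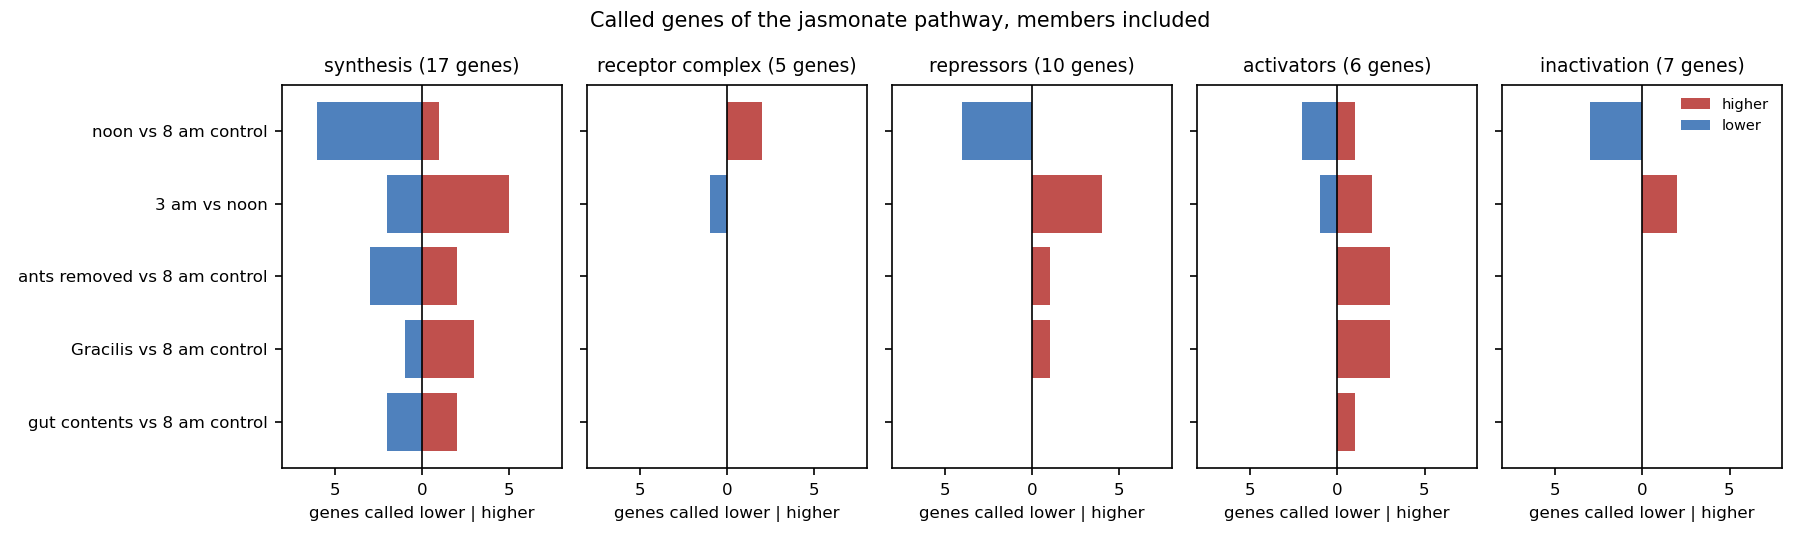
Number of called genes (x axis, lower to the left of 0 and higher to the right) in 5 classes of the jasmonate pathway, members included, in 5 comparisons (y axis). The repressor class has 4 genes lower at noon against 8 am controls and 4 higher at 3 am against noon, and 1 higher with ants removed and in Gracilis.

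Genes that ran most like the members over the 24 libraries were listed for the member of widest range in each role, by Pearson correlation on the log2 scale. These libraries share groups, so the values describe likeness of pattern and carry no test. For JAR1 these were AT5G06260, a TLD-domain protein (0.970), AT3G01430, an NHL domain protein (0.967), AT5G49820, a root UVB sensitive protein (0.964), AT4G23895, a pleckstrin homology domain protein (0.959), and AT1G18060 (0.959). For COI1 they were AT3G32930 (0.968), the GATA factor AT4G17570 (0.967), the DnaJ-domain row AT5G64360 (0.961), the WD40 row AT3G62770 (0.956) and the amidase AT3G25660 (0.955). For JAZ8 they were the bHLH factor AT5G57150 (0.861), AT4G38420 (0.852), the thioredoxin reductase AT2G17420 (0.851), the nudix hydrolase AT1G14860 (0.846) and the WRKY factor AT1G62300 (0.834). None of these 15 is on the jasmonate list.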

How the data were processed

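Nectaries were pooled over plants and sequenced as TruSeq RNA v2 paired-end libraries, as the labels' protocols state. The authors deposited normalised counts rounded to whole numbers, treated here as a score. Their aligner, assembly and scaling method were not given in the sources used here. The authors' deposited group means were not used, and read depth is unknown. Values were tested as log2(value + 1) in limma 3.58.1 (R 4.3.3) with a mean-variance trend, all 24 libraries and 10 groups in 1 fit (14 residual and 3.66 prior degrees of freedom), 2-sided, with Benjamini-Hochberg adjustment over 12264 genes with a mean of at least 10 (386 left out) and a threshold of 0.05. The 2 single libraries add nothing to the spread. The fit was tested on simulated data. Members and lists were chosen with earlier results of these data known. Named genes are the 9 members, up to 4 called list genes per comparison with the smallest adjusted p, and the 5 most alike. LHY, TOC1, SWEET9 and CWINV4 were set beside them. LOX4, AOC1 to AOC3, JAZ10, VSP2 and other listed loci, with BOP2 among the markers, were not analysed here. Sample numbers went together for Gracilis against ants removed (correlations of deviations 0.22 to 0.51), as seen in the values only. Alternatives were another pseudocount (10), no filter, 2 other scalings, array weights, averaged near-identical pairs and each library left out. The compared groups were also fitted alone, without and with a replicate block.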

Additional observations from a re-analysis of the deposited data

Results flagged for a closer look

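The single 2 pm library, which enters no comparison, was above all 3 of the 8 am controls for 6 members: LOX2 had 65978, LOX3 7971, COI1 13851, JAZ2 731, JAZ8 295 and MYC2 31086. Its total was also the highest of the series, and it has no replicate. The single returned ants library was above all 8 am controls for JAR1 (19857) and MYC2 (22857). It was below all of them for LOX2 (13943), LOX3 (1770), OPR3 (695), JAZ1 (19761), JAZ2 (150) and JAZ8 (29), and among them for COI1 (5263). None of these differences was tested.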

How the results depend on the processing

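The 42 called member results had 645 values under the alternatives, of which 536 kept their call and 109 lost it. None changed sign, which says something for the comparisons of 2 groups alone, as an F test has no sign. JAR1 kept its call in each fit of the ant comparisons with 8 am controls. The fit of the compared groups alone called 0 members for 3 am against 3 pm (5 as reported), and the replicate block called 3. Array quality weights called 2 for noon against 9 am (4 as reported), 3 for 3 am against 3 pm, 1 for 3 am against 8 am controls (0), 5 for Gracilis against 8 am controls (3) and 1 for Gracilis against ants removed (0). With near-identical pairs averaged, 0 were called for noon against 9 am, 1 in the F test over ant treatments (3), 2 with ants removed (4) and 1 with gut contents (3). With a library left out the counts were 1 to 3 in the F test over ant treatments, 0 to 5 for noon against 9 am, 0 to 1 for 3 pm against noon, 0 to 5 for 3 am against noon, 1 to 5 for 3 am against 3 pm, 1 to 2 for Gracilis and 1 to 3 for gut contents. The cause was not tested. The replicate block was fitted to the compared groups alone. In it LOX3 lost its call in the F test over times and at 3 am against noon. JAR1 lost its call at noon against 9 am, and OPR3 with gut contents. Each of these losses also occurred in the fit of these groups without the block. With the block MYC2 was called in the F test over ant treatments (4 members) and with gut contents. JAZ8 was called in Gracilis and with gut contents, and LOX2 at noon against 8 am controls (8 members). The counts of 4 and 8 were the same without the block. Over all genes the counts ranged between 2983 and 7315 for the F test over times (4865 as reported), 1306 and 6361 over ant treatments (2731), 95 and 2596 for noon against 9 am (1516), 3198 and 7466 for noon against 8 am controls (4585), 0 and 1366 for 3 pm against noon (0), 676 and 6095 for 3 am against noon (2493), 3 and 3226 for 3 am against 3 pm (2400), 2 and 562 for 3 am against 8 am controls (102), 1817 and 6963 with ants removed (3368), 2322 and 6489 for Gracilis (3729), 920 and 3840 for gut contents (2702), 0 and 343 for Gracilis against ants removed (0) and 0 and 19 for gut contents against it (8). Median-of-ratios scaling moved the median of all genes from 0.21 to 0.01 for noon against 9 am, with the same 4 members called. Read depth is unknown, so no counting limit can be set for low values such as JAZ8 at noon.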
